A study of Mus musculus with 18 samples.

Results

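The comparison described here sets the kidneys of HS_AOS_FMT mice against those of control mice. It holds 6 of the 18 kidney RNA-seq libraries of the series, 3 from each group, and 11862 of the 19545 genes in the deposited table. A gene was kept where at least 3 of the 6 libraries had 1 FPKM or more (fragments per kilobase of transcript, scaled to the mapped fragments of the library). All mice were of the outbred ICR strain and 10 weeks old. HS_AOS_FMT mice had a high fat diet and STZ (streptozotocin, a toxin of the insulin-secreting beta cell) and a transfer labelled AOS10mg/kg-FMT, where FMT stands for faecal microbiota transplantation. The labels do not spell out AOS, and do not say whether the dose of 10 mg/kg went to the donor or to the recipient of the transfer. Control mice carry the label control and nothing else. A pair of further groups served to place the difference: HS mice, with the high fat diet and STZ and no transfer, and HS_control_FMT mice, with the diet, STZ and a control transfer. The remaining groups, HS_AOS and AOS, had AOS without a transfer, with and without the diet and STZ. Because HS_AOS_FMT and control mice differ in the diet, the toxin and the transfer at once, these parts of the treatment cannot be told apart in this comparison. Nothing in the labels tells separate mice from repeat samples of 1 mouse, so a p-value here measures only the spread between samples.

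The kidney filters blood in the glomerulus and recovers most of the filtrate in the proximal tubule. The thick ascending limb, the distal convoluted and connecting tubules and the collecting duct then set the final salt, calcium and water content of urine. Many kidney transporters follow the circadian clock, in which the activators BMAL1 (the product of Arntl), CLOCK and NPAS2 drive genes through E-box sequences, the PER and CRY proteins repress them, and the REV-ERB receptors (Nr1d1, Nr1d2) repress Arntl in turn. The PAR bZIP factors DBP, TEF and HLF carry the rhythm to output genes through D-box sequences. Immediate early genes such as Jun and Fos are transcribed within minutes of a stimulus, and their proteins form the AP-1 factor. Diabetic models of this kind are used to study how high glucose and lipid reach the tubule and the glomerulus.

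The libraries had kidney identity throughout: all 30 proximal tubule transporters of the marker list passed the filter, with a summed level of 7769 to 8835 FPKM in HS_AOS_FMT and 6376 to 8337 FPKM in control. Between 15773 and 17270 genes were above 0 per library. Sequencing depth is unknown, because the table holds no counts. The library control 3 stood apart: its correlations with the other 17 libraries ran from 0.945 to 0.966, against 0.963 to 0.994 among the others. Kap, the androgen-regulated protein of the proximal tubule, had 92651, 99883 and 125838 FPKM in the HS_AOS_FMT libraries and 150876, 145522 and 15798 FPKM in the control libraries, and Havcr1, the tubular injury marker KIM-1, had 2.0, 1.98 and 4.5 FPKM in the HS_AOS_FMT libraries and 2.03, 1.85 and 19.4 FPKM in the control libraries. Adrenal cortex markers summed to 85.3, 522 and 146 FPKM in HS_AOS_FMT 1, 2 and 3, and to 79.7, 74.3 and 1134 FPKM in control 1, 2 and 3. Cyp11b1, an adrenal cortex enzyme that makes corticosterone, had 0.59, 38.2 and 6.11 FPKM in the HS_AOS_FMT libraries and 0, 0 and 118 FPKM in the control libraries. Perirenal fat markers summed to 335, 1503 and 1138 FPKM in HS_AOS_FMT and to 1041, 715 and 311 FPKM in control. The main counts are therefore also given without control 3, and the part of these tissues in any result was not tested.

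Against control, 32 genes were higher in HS_AOS_FMT (0.270% of those tested) and 38 were lower (0.320%) at an adjusted p under 0.05, in a limma model over all 18 libraries with Benjamini-Hochberg adjustment over the 11862 genes. The 32 higher genes had log2 changes from 0.38 to 2.04, with a median of 0.60. The 38 lower genes had a median of -0.65. Led by Jun, the higher genes held nuclear receptor and clock output factors (Ppara, Hlf), membrane proteins (Kcnk5, Slc13a4, Adra2b) and the antiproliferative pair Tob1 and Tob2. The lower genes held 6 sperm-specific transcripts and enzymes and carriers of metabolism (Cyp4a12b, Pgam2, Pmvk, Slc25a45). For all 70 genes the 3 values of one group lay entirely above the 3 of the other. That also held for 1247 genes higher in HS_AOS_FMT (10.5%) and 920 lower (7.76%) among all those tested, and 1875 genes had an unadjusted p under 0.05. The median log2 change of all genes was 0.0050.

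The number of genes called depended on single libraries. Leaving out HS_AOS_FMT 1, 2 or 3 left 17, 9 and 7 genes, and leaving out control 1 or control 2 gave 8 and 100 genes. Without control 3, 311 genes were higher (2.62%) and 107 lower (0.902%), and all 70 genes remained called. Over these 6 fits, 7 lower genes were called every time (Prm1, Prm2, Tnp1, Tnp2, Oaz3, Ldhc and Gm3448), and none of the 32 higher genes was. All 7 had passed the filter only through control, where they are high, so the filter bears on their stability. A fit of the 6 libraries alone called 6 genes, of which 5, all lower, were among the 70; none of the 32 higher genes was called in it. The 32 higher genes had a median GC content of 48.1% and a median transcript length of 4112 bases, the 38 lower genes 54.4% and 1613 bases, and all tested genes 49.8% and 3299 bases. With the trend over GC content and length taken out of each library, 20 genes were higher and 16 lower, and 24 of the 70 remained called.

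**Figure D1:**
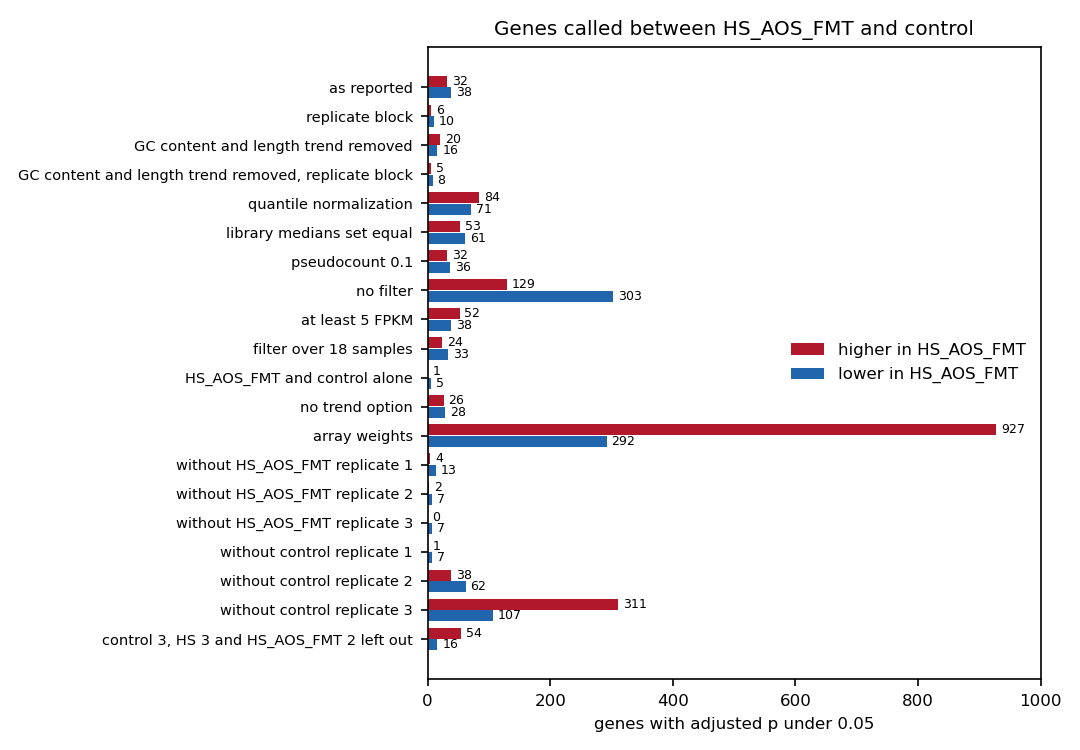
Number of genes with an adjusted p under 0.05 that were higher (red) or lower (blue) in HS_AOS_FMT than in control, for the fit as reported and for each alternative; the x axis counts genes. The 311 higher genes without control replicate 3 and the 0 higher genes without HS_AOS_FMT replicate 3 stand at either side of the 32 as reported; array weights gave 927.

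Jun, which encodes the c-Jun subunit of AP-1 (chr4:95049036-95052222, RefSeq, GRCm38), had the largest log2 change of the 32 higher genes. It had 55.4, 37.1 and 48.5 FPKM in the HS_AOS_FMT libraries and 5.56, 12.8 and 15.99 FPKM in the control libraries (log2 change 2.04, SE 0.30, adjusted p = 0.00859), a mean of 47.01 ± 9.25 FPKM in HS_AOS_FMT and 11.4 ± 5.34 FPKM in control (SD, n = 3 each). The lowest HS_AOS_FMT library lay above the highest control library by more than the range within control. Jun stayed called when any library except HS_AOS_FMT 3 was left out; without HS_AOS_FMT 3 the adjusted p was 0.0699. It was also higher than in HS_control_FMT (log2 change 1.20, SE 0.30, adjusted p = 0.0383), where no fit with 1 library left out passed (lowest adjusted p = 0.0655), and the difference from HS missed the threshold (log2 change 1.17, adjusted p = 0.0661).

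The 250 bases before the start of Jun, and of the clock genes Per3 and Ciart described below, are shown because each holds a sequence bound by AP-1 or by clock factors. Capitals mark matches found on either strand to TGACATCA (the variant AP-1 sequence of the Jun promoter), TTANGTAA (D-box) and CACGTG (E-box); no matches overlap. Sequences are from RefSeq, GRCm38.p6, minus strand, 5′ to 3′; the starts used for Per3 and Ciart lie inside the RefSeq gene, so these windows overlap its first bases.
Jun chr4:95052223-95052472: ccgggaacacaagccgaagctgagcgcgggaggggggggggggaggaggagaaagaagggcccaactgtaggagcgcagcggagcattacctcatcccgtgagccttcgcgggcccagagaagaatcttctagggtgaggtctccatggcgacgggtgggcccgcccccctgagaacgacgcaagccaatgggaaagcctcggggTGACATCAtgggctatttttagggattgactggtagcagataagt
Per3 chr4:151044666-151044915: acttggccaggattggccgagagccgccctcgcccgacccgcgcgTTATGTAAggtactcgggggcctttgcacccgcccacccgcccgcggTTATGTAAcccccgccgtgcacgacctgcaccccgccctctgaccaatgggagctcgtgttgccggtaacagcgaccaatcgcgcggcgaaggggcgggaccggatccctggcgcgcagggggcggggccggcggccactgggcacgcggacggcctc
Ciart chr3:95882229-95882478: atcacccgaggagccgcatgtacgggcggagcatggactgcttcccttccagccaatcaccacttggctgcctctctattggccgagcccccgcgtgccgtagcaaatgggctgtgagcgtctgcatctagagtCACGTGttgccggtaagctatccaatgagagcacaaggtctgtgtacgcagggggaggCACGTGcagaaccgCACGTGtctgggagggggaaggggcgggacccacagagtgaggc
The Jun window holds TGACATCA 1 time, as do 2.93% of the 32851 RefSeq windows of this length. The Per3 window holds the D-box 2 times (2.06% of windows hold it) and the Ciart window the E-box 3 times (6.02%). Of the 13 core clock genes with a window, out of 17 listed, 4 held CACGTG and 1 held TTANGTAA. Of the 19 immediate early genes with a window, out of 25 listed, 2 held TGACATCA. A match describes the letters only.

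Jun was the only one of 19 tested immediate early genes to pass with all libraries. The 19 had a median log2 change of 0.68, and 15 lay above 0. Of them, 4 were higher without overlap of the groups (Jun, Nr4a1, Dusp1, Cyr61), as were 10.5% of all genes tested. Fos, the partner of c-Jun, had 6.92, 3.22 and 10.6 FPKM in the HS_AOS_FMT libraries and 0.51, 0.72 and 3.29 FPKM in the control libraries (log2 change 1.71, SE 0.40, adjusted p = 0.0625), so HS_AOS_FMT 2 lay just below control 3. Nr4a1, an orphan nuclear receptor, had 15.8, 22.3 and 36.8 FPKM in the HS_AOS_FMT libraries and 1.61, 2.34 and 13.7 FPKM in the control libraries (log2 change 2.29, SE 0.55, adjusted p = 0.0672). Control 3 was the highest control library for Jun, Fos and Nr4a1. Dusp1, a phosphatase of the MAP kinases, had 63.2, 35.2 and 41.4 FPKM in the HS_AOS_FMT libraries and 9.17, 16.8 and 30.1 FPKM in the control libraries (log2 change 1.38, SE 0.34, adjusted p = 0.0717). Zfp36 (tristetraprolin, which destabilises AU-rich mRNAs) had 55.4, 41.6 and 60.6 FPKM in the HS_AOS_FMT libraries and 21.4, 20.6 and 42.9 FPKM in the control libraries (adjusted p = 0.0957). Cyr61, a secreted matrix protein, had an adjusted p of 0.0957.

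Without control 3, 8 immediate early genes rose (Jun, Fos, Junb, Egr1, Nr4a1, Btg2, Dusp1 and Zfp36) and none fell, with a list median of 1.27 against 0.08 over all genes. Of all genes tested, 2.62% rose and 0.902% fell without control 3. In that fit the log2 change was 3.06 (adjusted p = 0.00439) for Nr4a1, 2.18 (adjusted p = 0.00857) for Fos, 1.78 (adjusted p = 0.0117) for Dusp1 and 1.27 (adjusted p = 0.00936) for Zfp36. With control 1 or control 2 left out in its place, the list median was 0.42 and 0.45. The median therefore lay above 0 under each of these settings, while its size moved with control 3. Fos was also higher than in HS (log2 change 1.88, SE 0.40, adjusted p = 0.0408), although none of the 6 fits with a library left out passed (lowest adjusted p = 0.0716).

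Tob1 and Tob2, relatives of Btg2 that slow cell division and recruit the mRNA deadenylase complex, both rose. Tob2 had 26.3, 30.6 and 27.6 FPKM in the HS_AOS_FMT libraries and 11.1, 12.8 and 19.1 FPKM in the control libraries (log2 change 0.96, SE 0.20, adjusted p = 0.0481). Tob1 had 79.2, 64.5 and 76.8 FPKM in the HS_AOS_FMT libraries and 37.5, 40.7 and 53.9 FPKM in the control libraries (log2 change 0.74, SE 0.15, adjusted p = 0.0481). Both were called with only 1 of the 6 libraries left out, control 3, where the log2 change was 1.17 (adjusted p = 0.00667) for Tob2 and 0.89 (adjusted p = 0.00857) for Tob1.

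**Figure D2:**
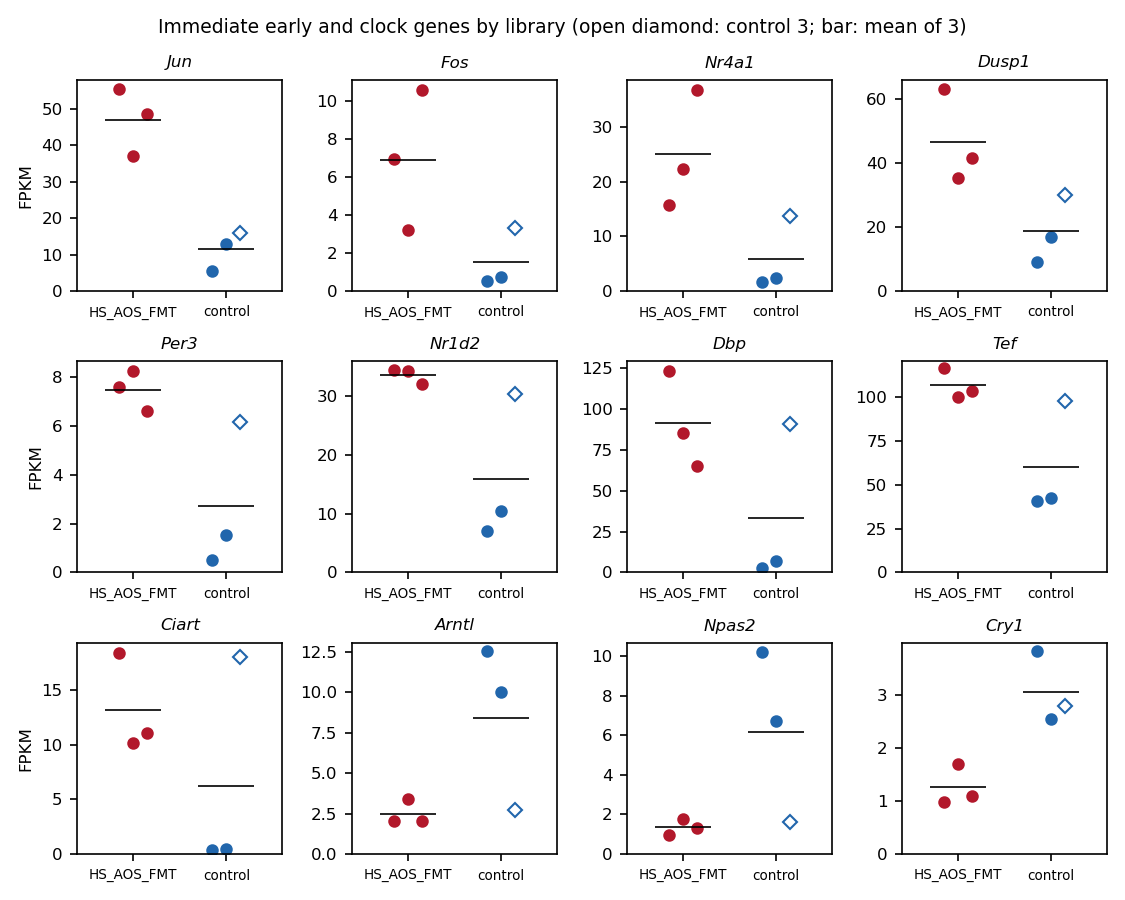
FPKM of 12 immediate early and clock genes in each HS_AOS_FMT library (red, left) and each control library (blue, right); bars are means of 3 and the open diamond is control 3. Control 3 sits with the HS_AOS_FMT libraries for Dbp, Tef, Ciart, Nr1d2, Arntl and Npas2, and below all 3 of them for Jun.

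Among clock genes, Hlf alone passed the threshold with all libraries. Hlf (chr11:90336535-90390917), a PAR bZIP activator of detoxification genes, had 33.6, 39.5 and 34.9 FPKM in the HS_AOS_FMT libraries and 21.2, 23.2 and 24.6 FPKM in the control libraries (log2 change 0.62, SE 0.12, adjusted p = 0.0406). It was also higher than in HS, at 23.6, 21.4 and 18.5 FPKM (log2 change 0.74, SE 0.12, adjusted p = 0.0199), and than in HS_control_FMT, at 23.7, 23.9 and 27.02 FPKM (log2 change 0.52, SE 0.12, adjusted p = 0.0326). The 3 HS_AOS_FMT libraries lay above all 9 libraries of control, HS and HS_control_FMT. HS_AOS and AOS are not covered by that statement. These 3 comparisons share the HS_AOS_FMT libraries. With 1 library left out, Hlf passed in 1 of 6 fits against control, 2 of 6 against HS and 0 of 6 against HS_control_FMT (highest adjusted p = 0.164, 0.118 and 0.159). With the GC content and length trend removed, its adjusted p against control was 0.0868.

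None of the 17 core clock genes passed, and their median log2 change was 0.30. Without overlap 5 were higher and 2 lower, against 10.5% and 7.76% of all genes tested. Per3 (chr4:150997018-151044707) had 7.59, 8.26 and 6.62 FPKM in the HS_AOS_FMT libraries and 0.5, 1.54 and 6.17 FPKM in the control libraries (log2 change 1.49, SE 0.41, adjusted p = 0.0957), with all 3 HS_AOS_FMT libraries above control 3. Nr1d2 (REV-ERB beta) had 34.6, 34.3 and 32.1 FPKM in the HS_AOS_FMT libraries and 7.14, 10.4 and 30.4 FPKM in the control libraries (log2 change 1.28, SE 0.33, adjusted p = 0.0815). Cry1, a repressor of CLOCK and BMAL1, had 0.98, 1.7 and 1.09 FPKM in the HS_AOS_FMT libraries and 3.84, 2.55 and 2.79 FPKM in the control libraries (log2 change -0.85, SE 0.20, adjusted p = 0.0667). Rora, the activator that competes with the REV-ERBs, had 6.92, 7.94 and 7.21 FPKM in the HS_AOS_FMT libraries and 5.87, 5.28 and 6.21 FPKM in the control libraries (log2 change 0.30, SE 0.09, adjusted p = 0.134).

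In Per3 and Nr1d2 control 3 lay close to the HS_AOS_FMT libraries, and in Cry1 and Rora it lay with control 1 and 2. Further clock genes were singled out with their values in view. Dbp had 123, 85.5 and 65.2 FPKM in the HS_AOS_FMT libraries and 2.76, 6.9 and 90.6 FPKM in the control libraries, and Tef had 116, 99.9 and 103 FPKM in the HS_AOS_FMT libraries and 40.6, 42.2 and 97.8 FPKM in the control libraries. Ciart (chr3:95878500-95882257), a repressor of CLOCK and BMAL1, had 18.4, 10.2 and 11.1 FPKM in the HS_AOS_FMT libraries and 0.33, 0.44 and 18.01 FPKM in the control libraries. For these genes control 3 resembled the HS_AOS_FMT libraries, and control 1 and 2 were low. Arntl ran the other way, with 2.01, 3.4 and 2.06 FPKM in the HS_AOS_FMT libraries and 12.5, 10.1 and 2.71 FPKM in the control libraries. So did Npas2, with 0.95, 1.79 and 1.29 FPKM in the HS_AOS_FMT libraries and 10.2, 6.71 and 1.6 FPKM in the control libraries. Their adjusted p-values with all libraries were 0.155 for Dbp, 0.116 for Tef, 0.211 for Ciart, 0.212 for Arntl and 0.164 for Npas2.

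Without control 3, 7 of the 17 core clock genes rose (Per1, Per3, Cry2, Nr1d1, Nr1d2, Bhlhe41 and Ciart) and 3 fell (Arntl, Npas2 and Cry1). Of all genes tested, 2.62% rose and 0.902% fell without control 3. Per3 and Nr1d2 passed in 1 of the 6 fits with a library left out, the one without control 3 (highest adjusted p = 0.273 and 0.233). In that fit the log2 change was 2.12 (adjusted p = 0.00211) for Per3, 1.85 (adjusted p = 4.55e-05) for Nr1d2, 3.32 (adjusted p = 0.00365) for Ciart, -1.83 (adjusted p = 0.039) for Arntl and -2.0 (adjusted p = 0.0187) for Npas2. Of 13 clock output genes, 5 rose in that fit (Dbp, Tef, Hlf, Wee1 and Tsc22d3), led by Dbp at 4.03 (adjusted p = 0.00615). Their median was 0.67, against 0.42 with all libraries. In HS mice Dbp had 11.2, 12.2 and 7.33 FPKM and in HS_control_FMT mice 46.3, 48.97 and 74.3 FPKM, so the HS values lay above control 1 and 2 and below the HS_AOS_FMT values. The hour at which each kidney was taken is not given in the sources used here.

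Ppara (chr15:85734910-85806851), a lipid-sensing receptor that switches on genes of fatty acid oxidation, rose in HS_AOS_FMT. It had 19.2, 20.4 and 18.9 FPKM in the HS_AOS_FMT libraries and 8.9, 10.96 and 12.1 FPKM in the control libraries (log2 change 0.82, SE 0.14, adjusted p = 0.0225), a ratio of means of 1.83. The 3 HS_AOS_FMT values were close together and lay above every control value. It was also higher than in HS, at 12.8, 9.96 and 12.8 FPKM (log2 change 0.68, SE 0.14, adjusted p = 0.0403), though in 0 of 6 fits with a library left out (lowest adjusted p = 0.0512). Against HS_control_FMT the log2 change was -0.08 (adjusted p = 0.797), with 24.7, 19.3 and 18.5 FPKM there.

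The other 32 tested members of the fatty acid oxidation list did not pass; 16 of all 33 lay above 0 and 17 below, with a median of -0.00084. Without control 3 Ppara was again the only member called, at a list median of 0.18. Ppara passed in 2 of the 6 fits with 1 library left out. For lipid synthesis, 0 of 21 genes passed with all libraries; the median was -0.09, and 0.14 without HS_AOS_FMT 1. Scd1, the stearoyl-CoA desaturase, had 8.5, 18.8 and 23.6 FPKM in the HS_AOS_FMT libraries and 82.1, 56.02 and 27.8 FPKM in the control libraries (log2 change -1.63, SE 0.45, adjusted p = 0.0985). Fasn, fatty acid synthase, had 4.96, 8.69 and 7.15 FPKM in the HS_AOS_FMT libraries and 28.1, 22.3 and 7.0 FPKM in the control libraries (adjusted p = 0.148), where control 3 fell among the HS_AOS_FMT libraries. Without control 3, Scd1, Fasn and Acaca were lower, with log2 changes of -2.05 (adjusted p = 0.0346), -1.74 (adjusted p = 0.00599) and -0.86 (adjusted p = 0.0117) in that order, and 1 member of the list was higher. Of all genes tested, 0.902% were lower and 2.62% higher without control 3. Dgat2, which completes triglyceride synthesis, had 95.6, 109.5 and 93.4 FPKM in the HS_AOS_FMT libraries and 77.4, 72.1 and 69.9 FPKM in the control libraries (log2 change 0.44, SE 0.12, adjusted p = 0.0916).

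Of 23 cholesterol genes, 1 fell: Pmvk, the phosphomevalonate kinase, had 5.37, 5.56 and 6.99 FPKM in the HS_AOS_FMT libraries and 11.2, 8.78 and 12.7 FPKM in the control libraries (log2 change -0.76, SE 0.15, adjusted p = 0.0433). It passed in 2 of the 6 fits with a library left out. With the GC content and length trend removed, its adjusted p was 0.0889. The list had a median of -0.19, with 1 gene higher and 7 lower without overlap, against 10.5% and 7.76% of all genes tested. Of 12 genes of glucose production and transport none passed; the median was 0.09, and -0.04 to 0.19 with 1 library left out. Pck1, the rate-limiting enzyme of gluconeogenesis, had 1062, 1417 and 1296 FPKM in the HS_AOS_FMT libraries and 524, 491 and 1011 FPKM in the control libraries (adjusted p = 0.211). Slc2a2, the glucose transporter GLUT2 of the basolateral membrane, had 70.1, 49.8 and 51.5 FPKM in the HS_AOS_FMT libraries and 33.05, 31.6 and 64.8 FPKM in the control libraries (adjusted p = 0.299); without control 3 its log2 change was 0.79 (adjusted p = 0.00998).

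Several membrane and metabolic genes of the tubule rose beside Ppara. Kcnk5, the acid-sensitive background potassium channel TASK-2, had 74.7, 77.8 and 99.8 FPKM in the HS_AOS_FMT libraries and 36.9, 51.8 and 28.98 FPKM in the control libraries (log2 change 1.11, SE 0.21, adjusted p = 0.0327). Nat8f6, of the N-acetyltransferase 8 family, had 149, 153 and 191 FPKM in the HS_AOS_FMT libraries and 84.5, 85.5 and 52.6 FPKM in the control libraries (log2 change 1.16, SE 0.24, adjusted p = 0.0441). Control 3 was the lowest library for both, and the groups did not overlap. Coq10b, a coenzyme Q binding protein of mitochondria, had 53.1, 49.98 and 68.01 FPKM in the HS_AOS_FMT libraries and 23.6, 32.3 and 32.8 FPKM in the control libraries (log2 change 0.93, SE 0.20, adjusted p = 0.0493). Ugt1a9, a glucuronosyltransferase, had 14.8, 13.7 and 12.6 FPKM in the HS_AOS_FMT libraries and 7.96, 10.1 and 6.34 FPKM in the control libraries (log2 change 0.71, SE 0.15, adjusted p = 0.0488). Nat8f6 and Ugt1a9 have near-identical relatives or shared exons, so their levels are uncertain where reads could be split between copies. With the GC content and length trend removed, the adjusted p was 0.0519 for Kcnk5, 0.0573 for Nat8f6, 0.0545 for Coq10b and 0.0817 for Ugt1a9. Each of these genes passed in 1 or 2 of the 6 fits with a library left out.

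Slc13a4, a sodium-sulfate cotransporter, was low but even within groups, with 3.19, 3.52 and 3.01 FPKM in the HS_AOS_FMT libraries and 1.77, 1.55 and 1.56 FPKM in the control libraries (log2 change 0.69, SE 0.11, adjusted p = 0.0175). Adra2b, the alpha-2B adrenergic receptor, had 26.2, 30.0 and 35.2 FPKM in the HS_AOS_FMT libraries and 16.3, 21.6 and 19.4 FPKM in the control libraries (log2 change 0.65, SE 0.14, adjusted p = 0.0487). The 3 values of each group were closer together than the gap between groups for Slc13a4. Stk35, a nuclear kinase, had 8.46, 8.61 and 8.53 FPKM in the HS_AOS_FMT libraries and 3.98, 5.33 and 5.93 FPKM in the control libraries (log2 change 0.66, SE 0.12, adjusted p = 0.0327). Mtss1, which bends the plasma membrane at actin, had 28.1, 30.9 and 27.2 FPKM in the HS_AOS_FMT libraries and 16.3, 17.8 and 21.4 FPKM in the control libraries (log2 change 0.61, SE 0.12, adjusted p = 0.0327). Lama1, the laminin alpha 1 chain of tubular basement membrane, had 4.55, 3.98 and 3.55 FPKM in the HS_AOS_FMT libraries and 2.62, 2.01 and 2.28 FPKM in the control libraries (log2 change 0.61, SE 0.12, adjusted p = 0.0396). The zinc finger gene Zfp655 had 28.9, 24.8 and 28.2 FPKM in the HS_AOS_FMT libraries and 19.4, 17.9 and 14.9 FPKM in the control libraries (log2 change 0.63, SE 0.12, adjusted p = 0.0327). With the GC content and length trend removed, Slc13a4, Stk35 and Mtss1 stayed called, with adjusted p-values of 0.0247, 0.0284 and 0.0247. Those of Adra2b, Lama1 and Zfp655 were 0.0519, 0.0519 and 0.0739. Each of these genes passed in 1 or 2 of the 6 fits with a library left out.

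These genes differed in how HS_AOS_FMT stood to the control transfer. Kcnk5 averaged 84.1 ± 13.7 FPKM in HS_AOS_FMT, 84.96 ± 10.3 in HS_control_FMT, 46.5 ± 4.07 in HS and 39.2 ± 11.6 in control (SD, n = 3 each). For Mtss1 these means were 28.7 ± 1.9, 38.4 ± 1.57, 18.8 ± 1.71 and 18.5 ± 2.63 FPKM in the same order. HS_AOS_FMT minus HS_control_FMT was -0.02 for Kcnk5 (adjusted p = 0.975) and -0.41 for Mtss1 (adjusted p = 0.0602). Zfp655 was higher in HS_AOS_FMT than in HS_control_FMT (log2 change 0.51, SE 0.12, adjusted p = 0.0308), in 1 of 6 fits with a library left out. Palld, an actin scaffold, rose against control (log2 change 0.55, SE 0.11, adjusted p = 0.0394) and was lower than in HS_control_FMT (log2 change -0.78, SE 0.11, adjusted p = 0.00354), at 22.4, 21.5 and 24.5 FPKM in HS_AOS_FMT, 38.4, 40.6 and 40.1 FPKM in HS_control_FMT and 12.3, 17.4 and 16.4 FPKM in control.

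**Figure D3:**
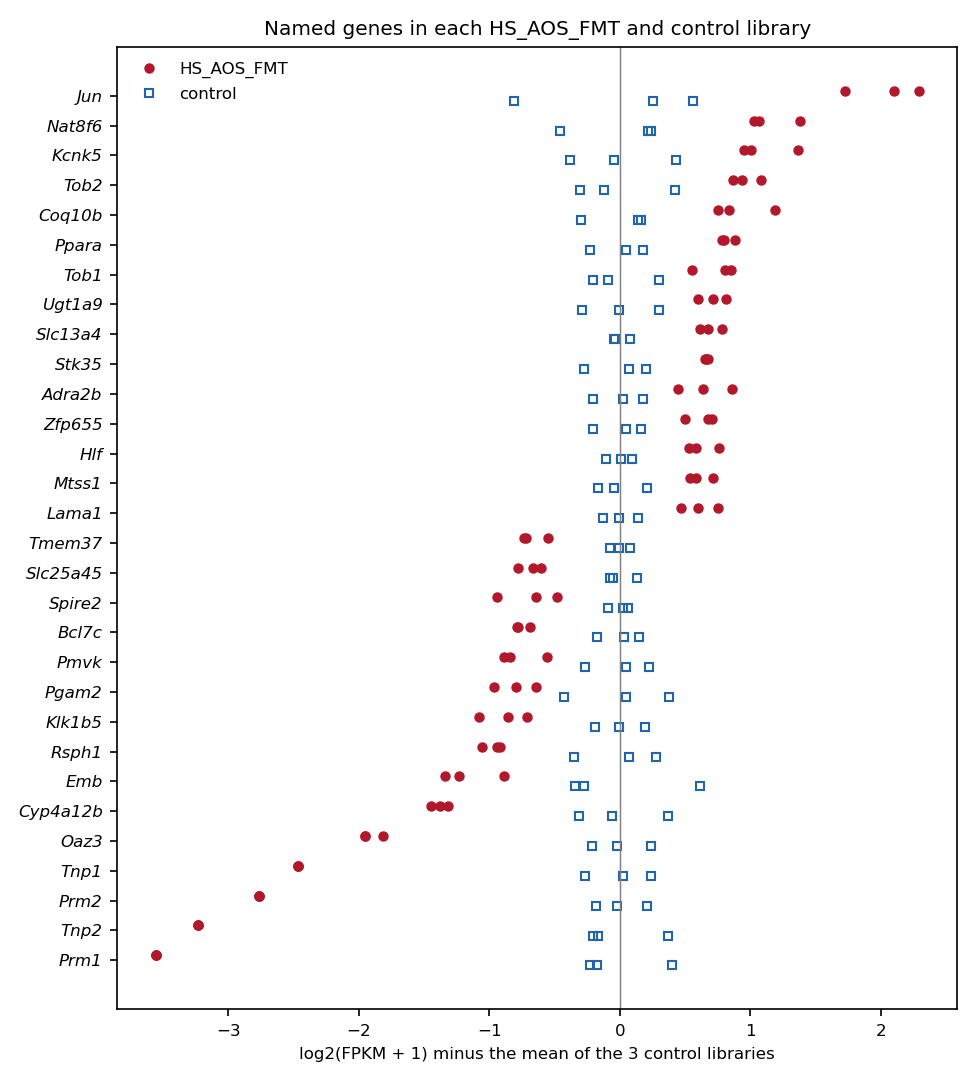
Each HS_AOS_FMT library (red circles) and each control library (blue squares) for the 15 higher and 15 lower named genes, as log2(FPKM + 1) minus the mean of the 3 control libraries. The groups do not overlap for any of the 30 genes, and the 4 lowest rows are genes listed at 0 in all HS_AOS_FMT libraries.

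Lower genes of kidney metabolism were led by Cyp4a12b, a cytochrome P450 fatty acid omega-hydroxylase. It had 2.7, 2.37 and 2.54 FPKM in the HS_AOS_FMT libraries and 7.83, 6.4 and 10.9 FPKM in the control libraries (log2 change -1.38, SE 0.23, adjusted p = 0.0178), a ratio of means of 0.303. HS_AOS averaged 3.44 ± 0.93 FPKM, HS_control_FMT 2.34 ± 0.61 FPKM and HS 2.93 ± 0.71 FPKM (SD, n = 3 each), and every control library lay above every library of the 4 groups given the diet and STZ. Its near-identical neighbour in the Cyp4a cluster makes the split of reads uncertain. Pgam2, a phosphoglycerate mutase, had 39.95, 31.7 and 35.8 FPKM in the HS_AOS_FMT libraries and 64.9, 46.5 and 81.9 FPKM in the control libraries (log2 change -0.80, SE 0.15, adjusted p = 0.0332). Slc25a45, a carrier of the mitochondrial inner membrane family, had 18.9, 20.5 and 21.4 FPKM in the HS_AOS_FMT libraries and 31.8, 36.3 and 31.2 FPKM in the control libraries (log2 change -0.68, SE 0.11, adjusted p = 0.022). Every HS_AOS_FMT library lay below every control library for these genes. Cyp4a12b, Pgam2 and Slc25a45 each passed in 2 of the 6 fits with a library left out. With the GC content and length trend removed, their adjusted p-values were 0.0122, 0.0512 and 0.0519 in that order.

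Tmem37, a transmembrane protein, fell. Its values were 58.6, 51.5 and 52.2 FPKM in the HS_AOS_FMT libraries and 86.03, 82.01 and 91.4 FPKM in the control libraries (log2 change -0.67, SE 0.10, adjusted p = 0.00859). It passed in 3 of 6 fits with a library left out, and with the GC content and length trend removed its adjusted p was 0.106. It was lower than in HS_control_FMT as well (log2 change -0.58, SE 0.10, adjusted p = 0.00742; 5 of 6 fits with a library left out). Emb, which escorts monocarboxylate transporters to the membrane, had 4.86, 5.34 and 7.04 FPKM in the HS_AOS_FMT libraries and 11.3, 10.7 and 21.8 FPKM in the control libraries (log2 change -1.15, SE 0.24, adjusted p = 0.0493). Bcl7c, a subunit of the BAF chromatin remodeller, had 21.6, 20.01 and 20.2 FPKM in the HS_AOS_FMT libraries and 39.1, 31.1 and 36.2 FPKM in the control libraries (log2 change -0.75, SE 0.13, adjusted p = 0.0225) and was also lower than in HS (log2 change -0.81, SE 0.13, adjusted p = 0.0199), in 2 of 6 fits with a library left out. Spire2, an actin nucleator, had 2.35, 2.75 and 1.72 FPKM in the HS_AOS_FMT libraries and 4.32, 3.92 and 4.47 FPKM in the control libraries (log2 change -0.69, SE 0.15, adjusted p = 0.0493). Among these genes control 3 was the highest control library for Tmem37, Emb and Spire2. Against control, Emb and Bcl7c each passed in 2 of 6 fits with a library left out, and Spire2 in 1 of 6. With the GC content and length trend removed, the adjusted p was 0.0247 for Emb, 0.0181 for Bcl7c and 0.0929 for Spire2.

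Kallikreins and calcium-binding proteins of the distal nephron had lower means in HS_AOS_FMT, and 1 of the 4 named here passed. Klk1b5, a member of the kallikrein cluster with close paralogs, had 1.9, 1.62 and 1.25 FPKM in the HS_AOS_FMT libraries and 3.72, 3.16 and 4.43 FPKM in the control libraries (log2 change -0.88, SE 0.15, adjusted p = 0.0225). It passed in 3 of the 6 fits with a library left out. With the GC content and length trend removed, its adjusted p was 0.0519. Klk1, tissue kallikrein of the connecting tubule, had 1062, 918 and 1144 FPKM in the HS_AOS_FMT libraries and 1774, 1517 and 2074 FPKM in the control libraries (log2 change -0.77, SE 0.17, adjusted p = 0.0542). S100g, the calcium-binding protein calbindin-D9k, had 385, 252 and 259 FPKM in the HS_AOS_FMT libraries and 1178, 469.8 and 2677 FPKM in the control libraries (log2 change -1.96, SE 0.46, adjusted p = 0.0625). Calb1, calbindin-D28k, had 105, 97.3 and 85.8 FPKM in the HS_AOS_FMT libraries and 177, 128 and 351 FPKM in the control libraries (log2 change -1.05, SE 0.25, adjusted p = 0.0672). The groups did not overlap for any of these 4 genes, although the control values of S100g spread widely. Without control 3 Calb1 passed, with a log2 change of -0.65 (adjusted p = 0.0421), while S100g gave -1.34 (adjusted p = 0.071) and Klk1 -0.66 (adjusted p = 0.0577).

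Marker lists of the distal segments had medians below 0, and no marker of them passed. All 15 thick ascending limb markers had lower means in HS_AOS_FMT, with a median log2 change of -0.55 and 5 lower without overlap, as were 7.76% of all genes tested. Bsnd, the barttin subunit of chloride channels, had 14.7, 13.3 and 13.6 FPKM in the HS_AOS_FMT libraries and 17.6, 20.6 and 25.9 FPKM in the control libraries (adjusted p = 0.0672), and Egf, the growth factor precursor, had 169, 223 and 219.7 FPKM in the HS_AOS_FMT libraries and 251, 274 and 325 FPKM in the control libraries (adjusted p = 0.127). Casr, the calcium-sensing receptor, had an adjusted p of 0.126, and Kcnj1, the potassium channel ROMK, one of 0.13. Of 14 distal convoluted and connecting tubule markers 13 lay below 0 (median -0.44, 7 lower without overlap). Of 12 principal cell markers 10 did (median -0.67, 6 without overlap). In bulk kidney, fewer cells of a type and less RNA per cell cannot be told apart.

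The principal cell genes included Avpr2, the vasopressin V2 receptor, at 6.04, 9.09 and 8.21 FPKM in the HS_AOS_FMT libraries and 13.6, 10.4 and 18.02 FPKM in the control libraries (adjusted p = 0.0999). Kcne1 had 4.84, 4.43 and 3.88 FPKM in the HS_AOS_FMT libraries and 7.95, 5.5 and 11.7 FPKM in the control libraries (adjusted p = 0.0815). Scnn1a, the alpha subunit of the epithelial sodium channel, had 32.7, 36.4 and 35.2 FPKM in the HS_AOS_FMT libraries and 53.6, 39.3 and 94.5 FPKM in the control libraries, and its adjusted p was 0.126. Control 3 was the highest library for all 3 genes. For Hsd11b2, which shields the mineralocorticoid receptor from cortisol and corticosterone, the groups overlapped, with 45.4, 49.6 and 44.5 FPKM in the HS_AOS_FMT libraries and 67.8, 49.3 and 81.1 FPKM in the control libraries. None of the 55 markers of the thick ascending limb, distal convoluted and connecting tubule, principal and intercalated cells passed with all libraries. Rhbg, the ammonium transporter of intercalated cells, came nearest in its list of 14 (adjusted p = 0.0999; list median -0.25).

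Without control 3 the medians moved toward 0, to -0.35 for the thick ascending limb, -0.21 for the distal convoluted and connecting tubule, -0.30 for principal cells and -0.12 for intercalated cells, against 0.08 for all genes. Summed distal convoluted and connecting tubule markers were 1944, 1613 and 1822 FPKM in HS_AOS_FMT and 3561, 2484 and 5716 FPKM in control. The summed thick ascending limb markers were 1138, 1776 and 1691 FPKM in HS_AOS_FMT and 1724, 2342 and 2605 FPKM in control. These sums overlap between groups for the thick ascending limb and do not for the distal convoluted and connecting tubule.

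**Figure D4:**
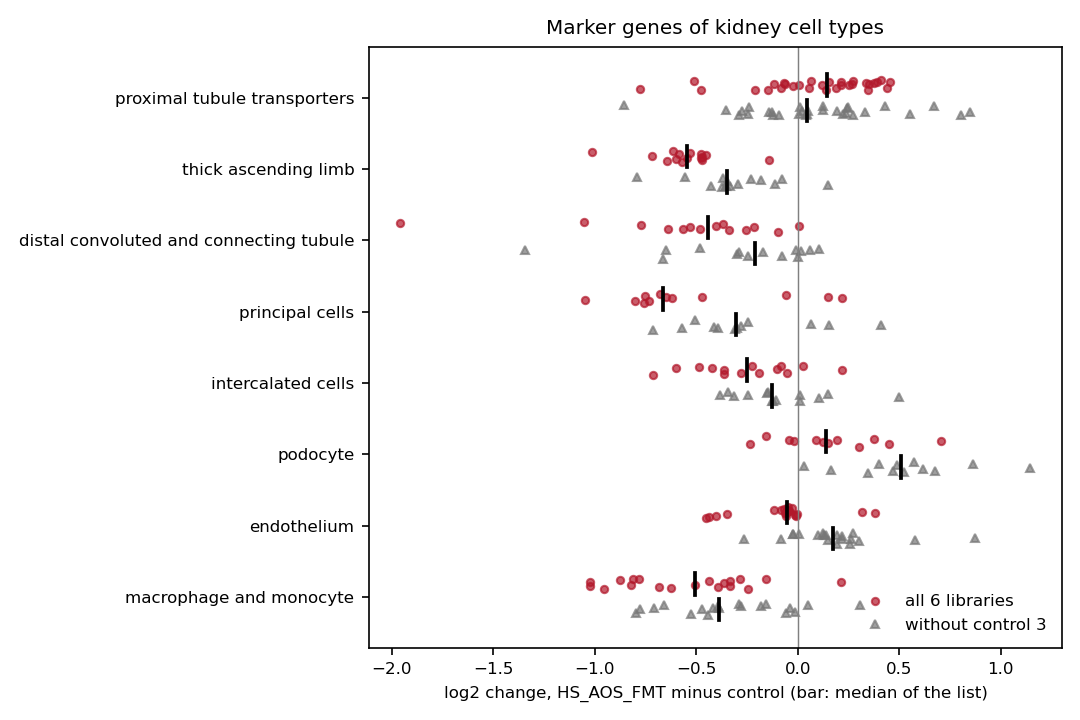
Log2 change, HS_AOS_FMT minus control, of each tested marker gene of 8 kidney cell types with all 6 libraries (red circles) and without control 3 (grey triangles); the black bar is the median of the list. The medians of the thick ascending limb, distal convoluted and connecting tubule, principal cells and macrophages lie below 0 in both, and that of endothelium changes side.

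Of 30 proximal tubule transporters, 20 lay above 0 and none passed. Without overlap 3 were higher and 2 lower, against 10.5% and 7.76% of all genes tested. The median of the list was 0.14, and 0.05 without control 3, against 0.08 for all genes in that fit. Slc9a3, the sodium-proton exchanger NHE3 that recovers most filtered sodium and bicarbonate, had 40.8, 38.4 and 36.95 FPKM in the HS_AOS_FMT libraries and 24.5, 27.8 and 32.2 FPKM in the control libraries (log2 change 0.45, SE 0.11, adjusted p = 0.0599). It was higher than in HS, at 25.7, 26.6 and 22.2 FPKM (log2 change 0.62, SE 0.11, adjusted p = 0.0199), and than in HS_control_FMT, at 25.3, 24.3 and 23.4 FPKM (log2 change 0.65, SE 0.11, adjusted p = 0.00592). The HS_AOS_FMT libraries lay above all 9 libraries of control, HS and HS_control_FMT, while Slc9a3 was not compared with HS_AOS and AOS. Against HS_control_FMT it passed in all 6 fits with a library left out, and against HS in 2 of 6. Slc6a18, a transporter of neutral amino acids, had lower values in HS_AOS_FMT, with 59.1, 92.2 and 86.9 FPKM in the HS_AOS_FMT libraries and 152, 133 and 120.2 FPKM in the control libraries (log2 change -0.78, SE 0.19, adjusted p = 0.065). Slc6a20b and Slc6a13 had adjusted p-values of 0.0975 and 0.134. Without control 3, 3 members rose and 1 fell, with Slc9a3 at 0.55 (adjusted p = 0.0155) and Slc6a18 at -0.86 (adjusted p = 0.0396). Of all genes tested, 2.62% rose and 0.902% fell in that fit.

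Podocyte and endothelial markers had medians of 0.14 (12 genes) and -0.06 (20 genes), with none called and none without overlap. Without control 3 these were 0.51 and 0.17, and without control 1 they were -0.05 and -0.32. In the fit without control 3, 3 podocyte genes rose, among them Nphs1, nephrin of the slit diaphragm, at 0.87 (adjusted p = 0.0177). Of all genes tested, 2.62% rose in that fit. With all libraries Nphs1 had 4.57, 4.73 and 5.27 FPKM in the HS_AOS_FMT libraries and 2.16, 2.26 and 6.6 FPKM in the control libraries. Macrophage and monocyte markers lay lower: 18 of 19 were below 0, with a median of -0.50 (-0.39 without control 3), and none passed. Without overlap 9 of them were lower, as were 7.76% of all genes tested. Fcer1g, an Fc receptor subunit, had 9.33, 6.15 and 6.99 FPKM in the HS_AOS_FMT libraries and 14.9, 12.4 and 22.5 FPKM in the control libraries (adjusted p = 0.2). C1qb, of complement C1q, had 11.4, 14.2 and 10.8 FPKM in the HS_AOS_FMT libraries and 23.8, 19.2 and 36.3 FPKM in the control libraries (adjusted p = 0.236). Lyz2 and Laptm5 had adjusted p-values of 0.247 and 0.201. The list summed to 124, 150.2 and 126 FPKM in HS_AOS_FMT and to 213, 177 and 342 FPKM in control.

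The lists tied to diabetic kidney damage gave no call. Of 29 extracellular matrix genes the median was -0.19 with all libraries and 0.04 without control 3, where that of all genes was 0.08. Of 14 tubular injury genes it was -0.28 and 0.15 in the same order, and of 25 interferon genes -0.35 and 0.13. These 3 medians changed side of 0 with the single library, though that of extracellular matrix stayed below the median of all genes. Injury markers of control 3 summed to 3211 FPKM, against 686 and 880 FPKM in control 1 and 2 and 619 to 716 FPKM in HS_AOS_FMT. Of 23 antioxidant genes the median was -0.18, and Gstp1, a glutathione transferase, had 509.6, 326 and 394 FPKM in the HS_AOS_FMT libraries and 668, 880.0 and 738 FPKM in the control libraries (log2 change -0.91, SE 0.25, adjusted p = 0.0985). Cytosolic ribosome genes had a median of -0.23 (38 genes, none called) and of -0.04 without control 3.

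Heat shock chaperones had 15 of 20 members above 0 against control, a median of 0.23 and 7 higher without overlap, as were 10.5% of all genes tested, and none passed. The median was 0.13 without HS_AOS_FMT 3 and 0.40 without control 2. Hspa1a and Hspa1b are near-identical inducible HSP70 genes. Hspa1b had 141, 90.7 and 235 FPKM in the HS_AOS_FMT libraries and 5.93, 48.2 and 17.4 FPKM in the control libraries (adjusted p = 0.127) and Hspa1a 54.3, 34.4 and 93.5 FPKM in the HS_AOS_FMT libraries and 2.54, 18.5 and 6.3 FPKM in the control libraries (adjusted p = 0.136). Hspa8, the constitutive chaperone HSC70, had 1668, 1585 and 2226 FPKM in the HS_AOS_FMT libraries and 821, 1519.5 and 1011 FPKM in the control libraries (adjusted p = 0.101). Dnajb1, its co-chaperone, had 34.2, 24.9 and 63.6 FPKM in the HS_AOS_FMT libraries and 10.5, 21.7 and 10.7 FPKM in the control libraries (adjusted p = 0.104).

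The lower genes with the largest log2 changes were transcripts of sperm. The 6 named here passed the filter only through control, where they are high. Their adjusted p-values rest on a spread pooled over libraries that mostly stand at 0. They do not measure the spread within control alone. Prm1 and Prm2, the protamines that pack sperm DNA, were listed at 0 in all HS_AOS_FMT libraries. Prm1 had 9.07, 9.44 and 14.5 FPKM in the control libraries (adjusted p = 4.23e-10), and Prm2 had 4.99, 5.7 and 6.86 FPKM (adjusted p = 4.23e-10). Tnp1 and Tnp2, the transition proteins that precede protamines, were likewise listed at 0 in HS_AOS_FMT. Tnp2 had 7.15, 7.33 and 11.1 FPKM in control (adjusted p = 1.03e-09), and Tnp1 had 5.53, 3.6 and 4.63 FPKM (adjusted p = 2.46e-08). No fold is given against a group at 0. Oaz3, the testis antizyme, had 0, 0.1 and 0 FPKM in the HS_AOS_FMT libraries and 2.33, 2.8 and 3.55 FPKM in the control libraries (adjusted p = 6.33e-07). Ldhc, the sperm lactate dehydrogenase, had 0, 0 and 0 FPKM in the HS_AOS_FMT libraries and 1.2, 1.47 and 2.01 FPKM in the control libraries (adjusted p = 1.83e-05). Prm1, Prm2 and Tnp2 are neighbours on chromosome 16 (chr16:10796332-10796823, chr16:10791377-10792105 and chr16:10787935-10788655); Tnp1 lies at chr1:73015074-73015899 and Oaz3 at chr3:94433387-94436651.

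These transcripts separated control from every other group, not HS_AOS_FMT from the rest. Prm1 and Prm2 were listed at 0 in all 15 libraries outside control. Tnp2 reached at most 0.19 FPKM there and Tnp1 at most 0.28 FPKM, both in HS_control_FMT 2. The model pools the spread over all 18 libraries. Where most libraries stand at 0, the p-value therefore does not measure the spread within control alone. Of 33 germ cell genes in the list, 11 were tested, 6 of them only because control passed the filter, and those counts are set by that choice. Gm3448, also called with each of the 6 libraries left out, had 0, 0.24 and 0 FPKM in the HS_AOS_FMT libraries and 1.5, 1.72 and 2.59 FPKM in the control libraries (adjusted p = 0.00172). Its symbol is that of a predicted gene, and its role was not examined. Rsph1, a radial spoke protein of cilia and sperm tails, had 0.59, 0.75 and 0.72 FPKM in the HS_AOS_FMT libraries and 1.6, 2.47 and 3.01 FPKM in the control libraries (log2 change -0.97, SE 0.20, adjusted p = 0.0442), and also passed the filter only through control. In all, 8 of the 38 lower genes did so, of 17 such genes tested. Rsph1 passed in 1 of the 6 fits with a library left out. With the GC content and length trend removed, its adjusted p was 0.0817. The origin of sperm transcripts in the 3 control kidneys was not tested.

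**Figure D5:**
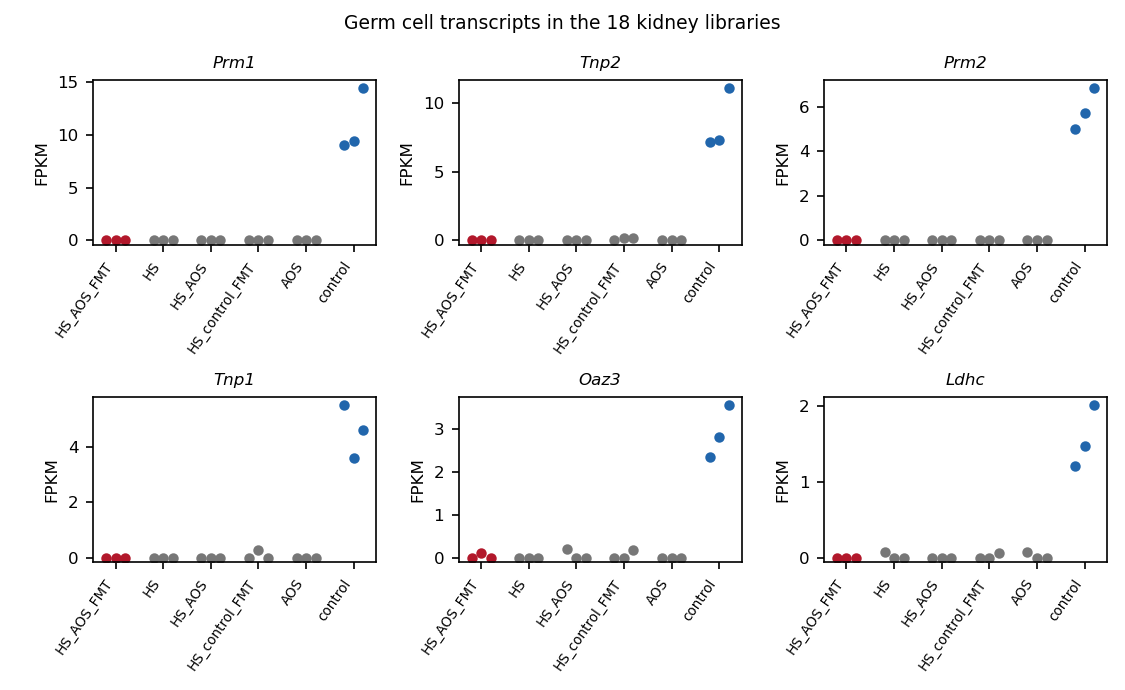
FPKM of 6 germ cell transcripts in each of the 18 libraries, with HS_AOS_FMT in red, control in blue and the other 4 groups in grey. The 3 control libraries carry 3.60 to 14.5 FPKM of Prm1, Prm2, Tnp1 and Tnp2; no other library exceeds 0.28 FPKM of Tnp1 or 0.19 FPKM of Tnp2.

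Ddx3y, an RNA helicase gene of the Y chromosome, rose, with 13.7, 15.2 and 15.7 FPKM in the HS_AOS_FMT libraries and 10.5, 11.03 and 7.32 FPKM in the control libraries (log2 change 0.60, SE 0.13, adjusted p = 0.0493). Uty, Eif2s3y and Kdm5d had log2 changes of 0.61, 0.45 and 0.43 (adjusted p = 0.0625, 0.0743 and 0.157), and Gapdh-ps15, a pseudogene also placed on the Y chromosome, had -0.43 (adjusted p = 0.256). Control 3 was the lowest control library for Ddx3y, Uty, Eif2s3y and Kdm5d. Without control 3 the log2 change of Ddx3y was 0.43 (adjusted p = 0.0418). These genes were singled out with their values in view.

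The comparisons that leave control out set HS_AOS_FMT against HS and HS_control_FMT. No test was run against HS_AOS, which had the diet, STZ and AOS, or against AOS. Against HS, 126 genes passed (1.06%), 57 higher and 69 lower. Against HS_control_FMT, 492 passed (4.15%), 364 higher and 128 lower; with library medians set equal the split was 236 higher and 227 lower, and with quantile normalization 151 and 126. For HS the split under quantile normalization was 106 higher and 84 lower, and with the GC content and length trend removed 19 and 10. The comparison with HS rested on single libraries: it gave 0 genes without HS_AOS_FMT 2, HS_AOS_FMT 3 or HS 3, 2 without HS 2, 67 without HS_AOS_FMT 1 and 96 without HS 1. Against HS_control_FMT, leaving 1 library out gave 62 to 265 genes. For scale, HS against control called 8 genes (0.0674%) and HS_control_FMT against control 398 (3.36%); both share the control libraries with the comparison above.

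A few genes, singled out with their values in view, differed in HS_AOS_FMT from control, HS and HS_control_FMT alike. Fcho2, an initiator of clathrin-coated pits, had 24.8, 30.8 and 27.97 FPKM in HS_AOS_FMT, 19.8, 19.1 and 18.1 FPKM in HS_control_FMT, 19.6, 18.1 and 17.6 FPKM in HS and 17.8, 18.9 and 22.6 FPKM in control. Every HS_AOS_FMT library exceeded all 9 libraries of these other groups, and HS_AOS and AOS were not compared. Its log2 change was 0.48 against control, 0.57 against HS and 0.53 against HS_control_FMT (adjusted p = 0.0433, 0.0199 and 0.00976 in that order). Ldlrad3, a receptor-like membrane protein with LDL receptor repeats, had 17.2, 17.9 and 18.1 FPKM in the HS_AOS_FMT libraries and 10.2, 12.4 and 11.5 FPKM in the control libraries (adjusted p = 0.0327 against control, 0.0403 against HS and 0.00775 against HS_control_FMT). Pelo, which rescues stalled ribosomes, had 14.03, 15.4 and 14.4 FPKM in the HS_AOS_FMT libraries and 20.1, 18.8 and 19.5 FPKM in the control libraries (adjusted p = 0.0478, 0.0199 and 0.0216 against the same 3 groups), and Prr13 had 45.3, 47.1 and 46.9 FPKM in the HS_AOS_FMT libraries and 58.5, 59.8 and 58.9 FPKM in the control libraries (adjusted p = 0.0264, 0.0199 and 0.0346). The 3 comparisons share the HS_AOS_FMT libraries. With a library left out, Fcho2 passed in 1 of 6 fits against control, 2 of 6 against HS and 5 of 6 against HS_control_FMT. For Ldlrad3 these counts were 2, 1 and 6, for Pelo 1, 2 and 1, and for Prr13 2, 2 and 0.

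Some stress chaperones that were not called against control differed between the transfers. Of 20 heat shock chaperones, 6 were lower in HS_AOS_FMT than in HS_control_FMT (list median -0.89). Hspa8, Dnajb1 and Hspa1b were not called there (adjusted p = 0.0635, 0.553 and 0.522). Of 21 genes of protein folding in the endoplasmic reticulum, 14 were lower in HS_AOS_FMT than in HS_control_FMT (list median -0.86). None of the 21 was called against control (median -0.01). Between the transfers, 128 of all 11862 genes tested were lower and 364 higher, with a median of 0.07. Sdf2l1, a partner of the ER chaperone BiP, had 3.42, 4.78 and 5.07 FPKM in HS_AOS_FMT, 24.8, 28.1 and 20.5 FPKM in HS_control_FMT and 8.0, 11.4 and 6.13 FPKM in control (log2 change -2.23, SE 0.27, adjusted p = 0.00126 against HS_control_FMT). Hspa5, BiP itself, had 196, 193 and 270.4 FPKM, 483, 589 and 444 FPKM and 185, 296 and 189 FPKM in the same 3 groups (log2 change -1.20, SE 0.22, adjusted p = 0.00976 against HS_control_FMT, in 4 of 6 fits with a library left out). Hmox1, heme oxygenase, had 35.3, 30.6 and 34.1 FPKM in HS_AOS_FMT, 199, 148 and 139 FPKM in HS_control_FMT, 56.1, 56.6 and 66.6 FPKM in HS and 33.7, 38.7 and 39.3 FPKM in control. It was lower than in HS_control_FMT and HS, with log2 changes of -2.23 against HS_control_FMT (adjusted p = 5.23e-06) and -0.82 against HS (adjusted p = 0.0357), passing in 6 of 6 and in 1 of 6 fits with a library left out in that order. Against control the log2 change was -0.15 (adjusted p = 0.68). The HS_AOS_FMT and control values of Hmox1 overlapped, while those of HS_AOS_FMT and HS_control_FMT were far apart.

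Against HS the largest rises were in Fos, above, and in Rnase4 and Upp2. Rnase4, a secreted ribonuclease, had 106, 86.9 and 57.2 FPKM in HS_AOS_FMT and 14.8, 37.2 and 30.9 FPKM in HS (log2 change 1.61, SE 0.32, adjusted p = 0.0392). Upp2, a uridine phosphorylase, had 16.7, 18.4 and 13.8 FPKM in HS_AOS_FMT and 4.05, 9.6 and 6.36 FPKM in HS (log2 change 1.23, SE 0.27, adjusted p = 0.0423). Neither passed with any 1 of the 6 libraries left out, and neither passed against control (adjusted p = 0.128 for Rnase4 and 0.211 for Upp2).

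The remaining gene lists gave no call against control. MHC class II genes (7 tested) had a median log2 change of -0.71 and complement genes (16) one of -0.40, against -0.26 and -0.15 without control 3. Androgen-responsive genes of the proximal tubule (14) had a median of 0.50 with all libraries and -0.14 without control 3. Glucocorticoid targets and metallothioneins (13) had a median of 0.24, and 5 members were higher without overlap, as were 10.5% of all genes tested. Targets of p53 (15) had a median of 0.10, which was 0.63 without control 3, where 3 of them rose, -0.12 without control 1 and -0.13 without control 2. Insulin and FOXO signalling genes (14) had a median of 0.21, and 2 rose without control 3. Of all genes tested, 2.62% rose without control 3. Medians of the integrated stress response (14), the renin-angiotensin system (11), and microbial metabolite transport and sensing (21) were 0.13, 0.14 and 0.17. The cell cycle list (15) had a median of -0.05, and 0.38 without control 3; NF-kB targets (15) had 0.01, and 0.25 without control 3. Medians were -0.15 for glycolysis (16), -0.09 for the nuclear genes of the respiratory chain (38), -0.09 for the proteasome (30), -0.15 for heme and iron handling (13) and -0.12 for NADPH oxidase (8). Of the NADPH oxidase genes, 4 lay above 0 and 4 below. Among them 2, Ncf1 and Ncf4, passed the filter only through control, so the filter bears on that median. Pericyte and smooth muscle markers (13, of which 1 passed the filter only through HS_AOS_FMT) had a median of 0.12, lymphocyte markers (6) 0.09, erythroid markers (7) -0.19 and liver markers (8) -0.17. With 1 library left out the median ran from -0.05 to 0.30 for pericytes, -0.04 to 0.10 for lymphocytes and -0.61 to 0.05 for erythroid markers. Adrenal cortex markers (10) had a median of 0.62, which ran from -0.32 without HS_AOS_FMT 2 to 2.42 without control 3; adrenal medulla markers (7) had 0.78 and perirenal fat markers (15) 0.55. For neutrophils 1 gene was tested and for exocrine pancreas 2.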

How the data were processed

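Kidney RNA-seq of 18 samples in 6 groups of 3 was read from 1 table of FPKM values deposited by the authors; the unit was read from the values, whose length-weighted sum varied by 0.930% between libraries and whose plain sum varied by 4.29%. Reads were aligned with Bowtie 0.12.2 to mm10, per the submitters' processing notes; how genes were quantified, with which annotation, strand setting and filter, is not given in the sources used here, so overlapping, antisense and near-identical genes may share reads. No counts were at hand, so depth and counting error are unknown, and the 3 samples per group set the precision. Groups come from the treatment label.

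Values were analysed as log2(FPKM + 1) with limma 3.58.1 in R 4.3.3: 1 mean per group over all 18 samples, 12 residual degrees of freedom, mean-variance trend and robust variances, Benjamini-Hochberg adjustment over the 11862 genes and a threshold of 0.05. A log2 change is on this scale and understates the change of low genes. The fit was tested on simulated data. Named genes are the 15 higher and 15 lower genes with the largest change among called genes without overlap and with at least 2 FPKM in the higher group, predicted genes left out, and from each gene list the called members (at most 6) or up to 4 with the smallest p, plus markers of a library that stands apart; other genes were singled out with their values in view. Members, lists and tests were chosen with earlier results of these data known. Alternatives covered the replicate block, GC content and length (GENCODE M21, 99.0% of tested genes), scaling, pseudocount, filters, variance options and leaving out libraries. Positions and promoters are from RefSeq (GRCm38). Symbols entered more than 1 time (3) were kept as separate rows. Of 50 gene lists, 46 had at least 5 tested members; the table used here holds no gene of the mitochondrial genome, and no skeletal muscle marker was tested.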

Additional observations from a re-analysis of the deposited data

How the results depend on the processing

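Against control 70 genes were called as reported. A pseudocount of 0.1 gave 68, a minimum of 5 FPKM 90, a filter over 18 samples 57 and no trend option 54. The count was 36 with the GC content and length trend removed, 155 with quantile normalization, 114 with library medians set equal, 432 with no filter, 6 in HS_AOS_FMT and control alone and 1219 with array weights. Leaving out 1 library gave 7 to 418 genes, the highest without control 3; leaving out control 3, HS 3 and HS_AOS_FMT 2, the libraries with the highest adrenal cortex sums in their groups, also gave 70, but these shared just 16 genes with the 70 as reported and split into 54 higher and 16 lower. Same-numbered HS_AOS_FMT and control samples correlated at 0.14, -0.18 and -0.21 in their deviations, so the numbers were not taken as pairs; the replicate block gave 16 genes, and 13 with the GC content and length trend also removed. Against HS (126 genes) the replicate block gave 37 and, with the GC content and length trend removed, 17. Against HS_control_FMT (492) the replicate block gave 289. For HS the other counts were 29 with the GC content and length trend removed, 190 with quantile normalization, 217 with medians set equal, 44 with no filter, 211 at a minimum of 5 FPKM, 1837 with array weights, 0 to 96 with 1 library left out, and 1 without the 3 libraries named above. For HS_control_FMT they were 277 with quantile normalization, 2448 with array weights, 62 to 265 with 1 library left out and 219 without the 3 libraries. HS against control (8 genes) gave 238 with no filter, 2 at a minimum of 5 FPKM, 192 with array weights and 7 to 13 with 1 library left out. HS_control_FMT against control (398) gave 703 with the GC content and length trend removed, 727 with no filter, 1983 with array weights and 175 to 543 with 1 library left out. Leaving out HS or HS_control_FMT libraries was an alternative chosen after seeing the data. The cause of these shifts was not tested.

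Of 108 genes followed through every alternative, 38 were called, and none of these changed direction. Among the uncalled genes of these 108, direction changed for 4; changes of direction in other uncalled genes are not counted here. Kap had a log2 change of 0.58 as reported, -0.37 with array weights, -0.46 without the 3 libraries and -0.49 to 1.13 with 1 library left out. Havcr1 had -0.61 as reported, 0.25 with array weights, 0.47 without the 3 libraries and -1.10 to 0.32 with 1 left out. Cyp11b1 ran from -0.55 to 2.93 with 1 library left out, and Hspa5 from -0.16 to 0.22, with 0.063 under quantile normalization. Depth is unknown, so the precision of low values cannot be given.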
